A study of Homo sapiens with 60 samples.

Results

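The comparison covers HT29 cells, a line from a human colorectal adenocarcinoma, treated with a water extract of Scutellariae Radix at 500 µg/mL (the high dose, 3 libraries) or at 20 µg/mL (the low dose, 3 libraries). These 6 of the 60 libraries of the study were chosen by their labels alone. Scutellariae Radix is the dried root of Scutellaria baicalensis, a digestive herbal medicine rich in flavones such as baicalin, baicalein and wogonin. Both groups were exposed for 24 h, and the labels give each extract as a water extract, without saying whether the wells also held dimethyl sulfoxide (DMSO). The same extract at 100 µg/mL (the medium dose, 3 libraries) and a water extract of Pinelliae Tuber at 500 and 20 µg/mL (3 libraries each) were used for reference. The sample codes of all these groups open with the same number, and every library is labelled batch A. The vehicle libraries (DMSO, 3 libraries, at a concentration on which the labels and the series text differ) carry another code. They are on neither side of any comparison tested here, so every change is between doses and not from untreated cells. They do enter the estimate of the spread, which all 60 libraries share. Nothing in the labels tells whether replicate libraries are separate cultures. The spread behind each p-value is that between libraries and may be technical.

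The 6 libraries held 16.7 to 30.72 M counts (M, 1e6). Mitochondrially encoded genes took 7.67 to 8.66% of them and ribosomal protein genes 5.26 to 5.82%, with overlapping ranges in the groups. Low-dose replicate 1 stood apart from the other 8 Scutellariae Radix libraries on the second principal component, which carried 13.6% of their variance. The colon epithelium markers were present, with all 14 of them passing the filter on low counts, EPCAM at 457 to 526 counts per 1e6 (CPM, on scaled library sizes) and the keratin KRT8 at 6100 to 7080 CPM. Markers of leukocytes (PTPRC), fibroblasts (COL3A1) and endothelium (KDR) were at 0 or no more than 0.0588 CPM in any of the 6 libraries. Other fibroblast and endothelial markers were detected at low levels. COL1A1 was at 0.858 to 1.45 CPM, LUM at 0.742 to 1.49, PECAM1 at 1.53 to 2.28 and TEK at 0.138 to 0.858. Among the 3 immune markers that passed the filter ITGAM (0.95 ± 0.16) and CD68 (0.44 ± 0.16) were higher at the high dose and CD14 (-0.75 ± 0.18) was lower, and the call of CD68 was lost without 5 of the 6 libraries in turn. The summed level of the immune list was at most 11.7 CPM at the low dose and 13.3 to 13.7 CPM at the high dose, and its part in the results was not tested. Of 4 fibroblast and endothelial markers TEK was lower (-1.26 ± 0.34), a call lost without high-dose replicate 1 (-0.84), and of 4 enteroendocrine, tuft and Paneth markers TRPM5 was lower (-1.72 ± 0.35).

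At the high dose 1315 genes were higher and 1399 were lower than at the low dose, out of 16608 genes tested (edgeR quasi-likelihood test, Benjamini-Hochberg adjusted p below 0.05). That is 16.3% of the genes in either direction, 7.92% higher and 8.42% lower, and these shares are the background for each gene group below. At least 2-fold changes were fewer, with 75 genes higher (0.452%) and 212 lower (1.28%). The median log2 change over all genes was -0.011. All 3 libraries of one dose lay beyond all 3 of the other in 37.5% of the genes tested. Of the 2714 called genes 2665 were so separated, so a lack of overlap is usual among called genes. The genes that rose included xenobiotic and antioxidant enzymes, amino-acid stress genes and enzymes of cholesterol synthesis. Those that fell included the superoxide-producing oxidase NOX1, which had the largest fall among the named genes above 5 CPM, most of the interferon-stimulated genes tested, and members of the goblet and Wnt lists. The plot of log2 changes by gene list shows these groups side by side.

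**Figure D1:**
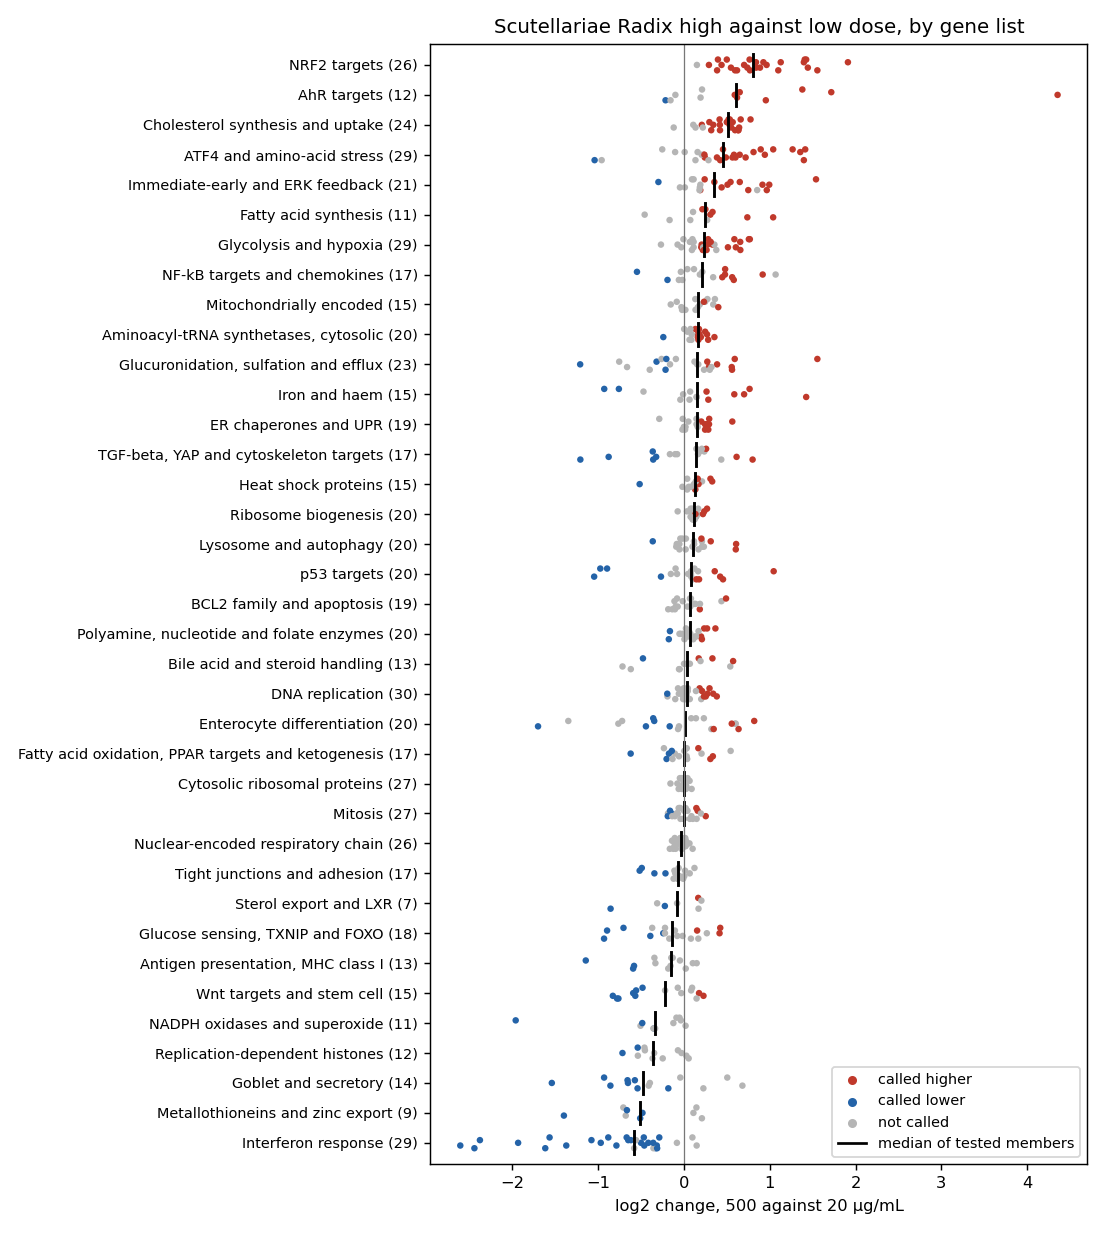
Log2 change at 500 against 20 µg/mL of Scutellariae Radix (x axis) for each tested member of 37 gene lists (y axis, tested members in brackets, sorted by median). Red points were higher and blue points lower at an adjusted p below 0.05, grey points were not called, and the black bar is the list's median, from 0.80 for NRF2 targets to -0.58 for the interferon response.

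The aryl hydrocarbon receptor (AhR) is a ligand-activated transcription factor that binds planar aromatic molecules, plant flavonoids among them. It moves to the nucleus, pairs with ARNT and switches on genes whose control regions hold a xenobiotic response element. CYP1A1, its classical target, encodes a cytochrome P450 that hydroxylates polycyclic aromatic compounds. The stretch of its promoter below is shown because CYP1A1 had the largest rise of all genes that met the naming rule. It lies at chr15:74725529-74725648 on the minus strand (RefSeq, GRCh38.p14), and the capitals mark a match to GCGTG, the core letters of the response element. So short a match need not be a working element, and binding of the receptor was not tested.
CYP1A1: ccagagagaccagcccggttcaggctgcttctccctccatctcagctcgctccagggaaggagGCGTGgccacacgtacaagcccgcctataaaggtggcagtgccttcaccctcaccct
The GCGTG letters, searched on both strands in the 250 bases before each start, were present for 6 of the 9 AhR list members with a promoter sequence (66.7%). The share was 51.6% over all tested genes with a promoter and 36.2% over all 27305 genes in the promoter table. The 6 members included ABCG2, which fell between low and high dose, and AHRR, which was not called.

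CYP1A1 (ENSG00000140465, chromosome 15, 74719542 to 74725610, GRCh38) rose 20.4-fold. It stood at 4.00, 2.39 and 2.29 CPM in the low-dose libraries and at 58.1, 54.7 and 58.2 CPM in the high-dose libraries, a log2 change of 4.35 ± 0.12 (adjusted p = 7.19e-32, edgeR). The groups lay far apart, and the vehicle libraries had a lower mean of 0.563 ± 0.12 CPM (SD, n = 3). The medium dose gave the highest level of the 3 doses, 152, 159 and 167 CPM. From the medium to the high dose CYP1A1 fell, with a log2 change of -1.48 ± 0.088 (adjusted p = 3.9e-18, edgeR).

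CYP1B1, the sister P450 that also hydroxylates oestrogens, followed the same order of doses. Its levels were 138, 96.9 and 93.0 CPM at the low dose, 468, 449 and 439 CPM at the medium dose and 286, 286 and 278 CPM at the high dose. The high-against-low log2 change was 1.38 ± 0.08 (adjusted p = 2.28e-19) and the high-against-medium change was -0.68 ± 0.077 (adjusted p = 4.68e-09, edgeR). ALDH1A3, an enzyme that makes retinoic acid, also peaked at the medium dose, with means of 35.8 ± 4.93, 116 ± 2.47 and 48.5 ± 1.596 CPM in order of dose (SD, n = 3). Its rise from low to high dose was small (0.45 ± 0.07) beside its fall from medium to high (-1.26 ± 0.067, adjusted p = 3.79e-20, edgeR). The adhesion receptor ADGRF1, the kinase PIM1 and the serotonin receptor HTR1D had the same shape with smaller log2 changes of -0.27, -0.30 and -0.36 from medium to high dose. Those 3 falls were less firm. The call of ADGRF1 was lost without medium-dose replicate 1 (-0.21) or high-dose replicate 2 or 3 (-0.26 and -0.24), that of PIM1 without any of 4 libraries (-0.26 to -0.29) and that of HTR1D without any of 5 (-0.32 to -0.38). ALDH1A3, ADGRF1, PIM1 and HTR1D were picked out after their values were seen.

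**Figure D2:**
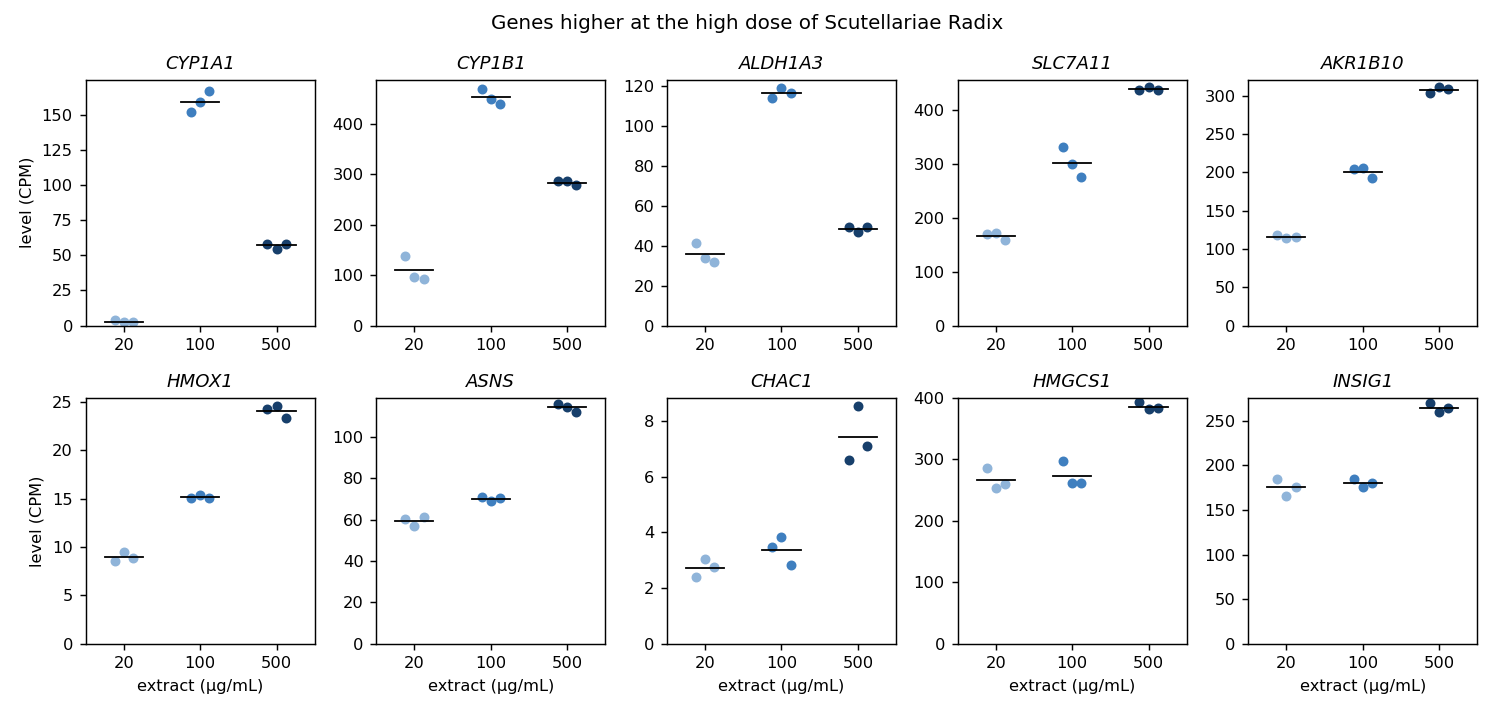
CPM (y axis, from 0) of 10 genes at 20, 100 and 500 µg/mL of Scutellariae Radix (x axis). Points are libraries and bars are means of 3. CYP1A1, CYP1B1 and ALDH1A3 are highest at 100 µg/mL, SLC7A11, AKR1B10 and HMOX1 climb through both steps, and HMGCS1 and INSIG1 lie apart from the other doses only at 500 µg/mL.

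Of the 12 AhR pathway genes tested, 7 rose and 1 fell between low and high dose, with a median log2 change of 0.606. ALDH3A1, an aldehyde dehydrogenase that both AhR and NRF2 control, went from 22.9, 23.0 and 24.7 to 77.0, 77.4 and 78.0 CPM (1.72 ± 0.093, adjusted p = 1.73e-20, edgeR). TIPARP, an ADP-ribosyltransferase that feeds back on the receptor, rose from 102 ± 14.5 to 196 ± 3.33 CPM (0.95 ± 0.084), and its medium-dose mean of 216 CPM did not pass the test against the high dose (adjusted p = 0.527). The other members that rose were NQO1 (0.62), UGT1A6 (0.59) and the amino-acid carrier SLC7A5 (0.65). The lists overlap, so their counts are not separate. NQO1 is also in the NRF2 list below and SLC7A5 in the ATF4 list, and SLC7A11 is in both of those lists. The efflux pump ABCG2 fell 1.16-fold. The receptor AHR itself (-0.10), its partner ARNT (-0.16) and its repressor AHRR (0.21) did not pass the test. From low to medium dose 7 members of this list rose, where 1.78% of all genes did. From medium to high dose 2 rose and 3 fell, where 2.46% and 2.63% of all genes did (5.09% in either direction).

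NRF2 is a transcription factor held inactive in the cytoplasm by KEAP1 until electrophiles or oxidants modify that protein. Once free it binds antioxidant response elements and raises enzymes of glutathione synthesis, NADPH supply, quinone reduction and iron storage. GCLM, the modifier subunit of the enzyme that starts glutathione synthesis, is a classical example. Its promoter at chr1:93909431-93909530 (minus strand, RefSeq, GRCh38.p14) carries a match to the letters of such an element, in capitals.
GCLM: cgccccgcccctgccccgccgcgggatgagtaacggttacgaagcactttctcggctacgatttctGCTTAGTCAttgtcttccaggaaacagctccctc
The letters TGACNNNGC, on either strand, were found for 4 of 17 NRF2 list members with a promoter sequence (23.5%), against 15.8% of tested genes.

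NRF2 targets were the list with the largest median, 0.804, and 25 of its 26 genes rose. The exception was TALDO1 of the pentose phosphate pathway (0.15), which did not pass. SLC7A11, the cystine importer that feeds glutathione synthesis, stood at 170.1, 172 and 158 CPM at the low dose and 437, 442 and 437 CPM at the high dose. Its log2 change was 1.40 ± 0.071 (adjusted p = 1.62e-21, edgeR). GCLM rose from 63.0, 65.6 and 64.5 to 147, 136 and 130.4 CPM (1.10 ± 0.061, adjusted p = 5.52e-20), and the catalytic subunit GCLC rose 1.90-fold. In all 3 genes the libraries of the high dose lay above every library of the low dose.

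AKR1B10, an aldo-keto reductase that clears reactive carbonyls, went from 116 ± 2.59 to 307 ± 3.91 CPM (SD, n = 3; 1.41 ± 0.07, adjusted p = 1.15e-21, edgeR). HMOX1, which opens the haem ring, rose from 8.58, 9.45 and 8.83 to 24.3, 24.6 and 23.3 CPM (1.42 ± 0.08). AKR1C1 rose 2.72-fold, but this gene and AKR1C2 are near-identical copies, so the division of reads between them is uncertain. TXNRD1, which reduces thioredoxin, rose by 0.84 ± 0.051 on the log2 scale. The canalicular pump ABCC2 was scarce but rose from 1.02 ± 0.232 to 2.95 ± 0.352 CPM (1.55 ± 0.26). The largest change on the list belonged to the pseudogene transcript NMRAL2P (1.91 ± 0.38), at no more than 1.39 CPM in any library.

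NRF2 targets rose in both steps of dose. Its median change was 0.485 from low to medium dose, with 20 members higher, and 0.325 from medium to high dose, with 19 higher. These steps share the medium-dose libraries. SLC7A11 passed the test in both steps (0.86, adjusted p = 2.42e-13, and 0.54, adjusted p = 1.11e-07, edgeR). Iron-handling genes, some of them NRF2 targets as well, moved in both directions. Ferritin heavy chain FTH1 (0.70 ± 0.098) and light chain FTL (0.77 ± 0.10), which store iron, were higher, as was ALAS1 (0.59 ± 0.052), which starts haem synthesis. The iron exporter SLC40A1 fell, from 133 ± 6.55 to 78.8 ± 2.13 CPM (-0.76 ± 0.06), and biliverdin reductase BLVRA, at under 1.5 CPM, fell by 1.90-fold. In all 6 of 15 iron and haem genes rose and 2 fell.

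ATF4 is the effector of the integrated stress response. When amino acids run short or proteins misfold, phosphorylation of eIF2 slows general translation while ATF4 protein is made, and it induces amino-acid importers, biosynthetic enzymes and its own feedback genes. ASNS makes asparagine and is a standard reporter of the pathway. Its promoter at chr7:97872409-97872508 (minus strand, RefSeq, GRCh38.p14) is shown with the amino-acid response element in capitals.
ASNS: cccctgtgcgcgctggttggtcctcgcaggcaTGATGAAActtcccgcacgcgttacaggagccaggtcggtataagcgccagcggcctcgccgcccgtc
The letters TGATGNAA were found on either strand for 6 of 24 ATF4 list members with a promoter sequence (25.0%), against 2.37% of tested genes. Some of these 6 members were not called between the doses.

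Of the 29 ATF4 and amino-acid stress genes tested, 20 rose and 1 fell, with a median log2 change of 0.455. ASNS went from 60.3, 56.7 and 61.1 to 116, 115 and 112 CPM (0.94 ± 0.06, adjusted p = 5.1e-18, edgeR). TRIB3, a pseudokinase that restrains ATF4, went from 45.9, 45.3 and 45.1 to 92.7, 95.9 and 91.7 CPM (1.04 ± 0.065, adjusted p = 3.56e-18). The groups did not overlap in either gene, and the spread within a group was small beside the distance between the groups.

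CHAC1, which degrades glutathione, rose 2.66-fold from 2.41, 3.04 and 2.75 to 6.62, 8.53 and 7.10 CPM (1.41 ± 0.16, adjusted p = 4.65e-10, edgeR). The stress factor ATF3 rose 2.41-fold, from 2.496 ± 0.719 to 6.19 ± 0.205 CPM. PPP1R15A, the phosphatase subunit that ends the response (0.89), the TORC1 inhibitor DDIT4 (0.81) and the serine-pathway enzyme PSAT1 (0.60) rose less. The transcript of ATF4 itself changed by 0.24 ± 0.06 and that of the pro-apoptotic factor DDIT3 by 0.49 ± 0.13. The member that fell was the mitochondrial folate enzyme ALDH1L2, at under 1.2 CPM throughout (-1.04 ± 0.34, adjusted p = 0.0257), and its call was lost without low-dose replicate 1 (-0.72) or high-dose replicate 3 (-0.62). It was also lost with no filter on low counts, with only the 6 libraries compared and with only the 18 libraries of the set.

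The median of the ATF4 list was 0.112 from low to medium dose (7 members higher) and 0.352 from medium to high dose (16 higher). TRIB3 changed by 0.17 in the first step (adjusted p = 0.164) and by 0.87 in the second (adjusted p = 6.17e-15, edgeR). Genes of 2 neighbouring programmes moved less. Among 20 cytosolic aminoacyl-tRNA synthetases, which load amino acids onto tRNA, 12 rose and 1 fell with a median of 0.163. WARS1 rose by 0.36 ± 0.046 and GARS1 by 0.27 ± 0.037, and QARS1 fell (-0.24 ± 0.049). The number that rose ran from 5 to 15 across the alternative settings, lowest with no filter on low counts. Of 19 chaperones and unfolded-protein genes of the endoplasmic reticulum 8 rose (median 0.147), DNAJB9 by 0.56 ± 0.095 and HSPA5, the main chaperone there, by 0.20 ± 0.044. In the heat shock list 5 of 15 rose, among them HSPH1 (0.33 ± 0.046), and the small heat shock protein HSPB1 fell (-0.52 ± 0.14). That list's count of members that rose ranged from 2 to 9 over the alternative settings.

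Cholesterol synthesis is controlled by SREBP2, a membrane-bound factor that is released by cleavage when sterols in the endoplasmic reticulum run low. It then raises nearly every enzyme from acetyl-CoA to cholesterol. Of the 24 genes tested in this list 20 rose at the high dose, with a median log2 change of 0.510. The 4 that did not pass were PMVK, TM7SF2, EBP and the factor's own gene SREBF2 (0.11). The letters TCACNCCAC of the sterol response element were found on either strand for 1 of 18 members with a promoter sequence (5.56%), against 1.19% of tested genes, and that member was SREBF2.

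HMGCS1, which makes HMG-CoA, stood at 286, 254 and 260.1 CPM at the low dose and 393, 382 and 383 CPM at the high dose (0.53 ± 0.065, adjusted p = 7.33e-09, edgeR). SQLE, the epoxidase that acts on squalene, went from 808, 767 and 757 to 1216, 1195 and 1209.9 CPM (0.63 ± 0.039, adjusted p = 1.23e-18). All high-dose libraries lay above all low-dose libraries in both genes. Other enzymes along the pathway rose by similar amounts. The isomerase IDI1 rose by 0.57 ± 0.053 and the demethylase CYP51A1 by 0.63 ± 0.038. INSIG1, which retains the SREBP complex, rose by 0.60 ± 0.056, and STARD4, a sterol carrier, by 0.66 ± 0.061.

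The median change of the cholesterol list from low to medium dose was 0.039, with 2 members higher, and from medium to high dose it was 0.436, with 20 higher. INSIG1 moved by 0.04 in the first step (adjusted p = 0.851) and by 0.56 in the second (adjusted p = 1.78e-10, edgeR). The plot of the medium against the high dose shows the cholesterol genes close to its horizontal zero line and CYP1A1 and CYP1B1 above its diagonal.

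**Figure D3:**
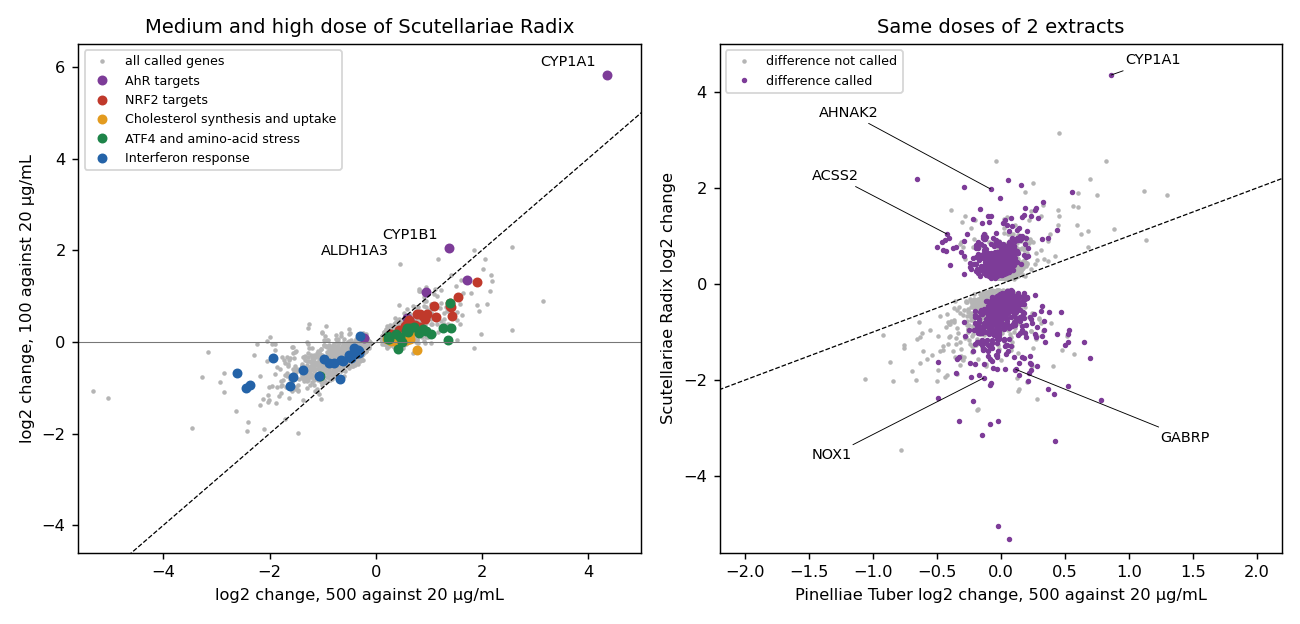
Left, for the 2714 genes called between high and low dose, log2 change at 500 against 20 µg/mL (x axis) and at 100 against 20 µg/mL (y axis), with 5 lists in colour; both axes share the low-dose libraries, and on the dashed line the doses have equal changes. Right, the same genes' change at 500 against 20 µg/mL of Pinelliae Tuber (x axis) and Scutellariae Radix (y axis), purple where the difference was called; CYP1A1 lies at 0.86 and 4.35.

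In fatty acid synthesis 6 of 11 genes rose, with a median of 0.25. ACSS2, which turns acetate into acetyl-CoA, rose from 24.5, 21.7 and 23.5 to 48.1, 46.7 and 48.2 CPM (1.04 ± 0.066, adjusted p = 6.04e-18, edgeR). The desaturase SCD rose by 0.33 ± 0.072 and the synthase FASN by 0.25 ± 0.09 (adjusted p = 0.0471). The call of FASN was lost under the DESeq2 size factors and without any 1 of the 6 libraries. ABCA1, which exports cholesterol under control of the oxysterol receptor LXR, fell from 4.53, 4.54 and 4.43 to 2.21, 2.49 and 2.75 CPM (-0.85 ± 0.18, adjusted p = 0.000464). The related exporter ABCG1 was at 4.57 ± 0.544 and 3.70 ± 0.136 CPM (adjusted p = 0.0676), and 1 of the 7 genes of sterol export rose while 2 fell. In fatty acid oxidation and ketogenesis 3 of 17 genes rose and 4 fell, CPT1A, the gate of fatty acid entry into mitochondria, rising by 0.31 ± 0.05.

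Interferon-stimulated genes encode antiviral effectors that the factor ISGF3, which contains STAT2 and IRF9, induces through the interferon-stimulated response element. Many epithelial lines keep a low basal level of them without added interferon. Of the 29 genes tested 23 fell at the high dose of the extract, with a median log2 change of -0.58. The other 6 did not pass. The promoters of IFI44L at chr1:78620268-78620447 and IFIT1 at chr10:89392483-89392622 (both plus strand, RefSeq, GRCh38.p14) are given below. They are shown because each matches the letters of the element more than once. Capitals mark GAAA, any 2 bases and GAAA again, or the reverse complement (TTTC, any 2 bases, TTTC).
IFI44L: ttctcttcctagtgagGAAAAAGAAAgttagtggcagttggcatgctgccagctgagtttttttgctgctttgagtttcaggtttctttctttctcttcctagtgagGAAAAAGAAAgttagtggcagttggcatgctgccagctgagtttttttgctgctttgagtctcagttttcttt
IFIT1: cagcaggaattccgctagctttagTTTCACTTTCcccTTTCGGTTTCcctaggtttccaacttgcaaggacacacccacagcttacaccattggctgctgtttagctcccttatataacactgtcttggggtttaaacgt
These letters were found on either strand for 15 of the 22 members with a promoter sequence (68.2%), against 3.22% of tested genes and 3.71% of all genes in the promoter table. Some of these 15 members, ISG15 among them, were not called.

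MX1, a GTPase that blocks viral ribonucleoproteins, stood at 9.52, 8.24 and 12.8 CPM at the low dose and 3.48, 3.60 and 3.38 CPM at the high dose. It was 2.96-fold lower (-1.57 ± 0.17, adjusted p = 2.37e-10, edgeR). OAS2, a sensor of double-stranded RNA, was 3.06-fold lower, at 6.17, 5.15 and 7.72 against 2.17, 1.75 and 2.25 CPM. IFITM3, which stops viral entry, went from 16.6, 16.7 and 19.3 to 8.24, 8.26 and 10.3 CPM (-0.97 ± 0.12), although it and IFITM1 share sequence and may share reads. In these genes no library of one dose reached the range of the other, which the naming rule had required of MX1 and OAS2.

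IRF9, the DNA-binding subunit of ISGF3, fell 2.11-fold from 14.9 ± 2.43 to 7.18 ± 0.616 CPM (-1.08 ± 0.13, adjusted p = 5.07e-09, edgeR), while STAT2 changed by -0.36 ± 0.08. The changes of the 2 genes whose promoters are shown differed in size. IFI44L was at 0.764, 1.08 and 1.82 CPM against 0.241, 0.159 and 0.298 CPM (-2.38 ± 0.45), and IFIT1 at 6.52, 6.18 and 8.65 against 3.86, 5.46 and 4.51 CPM (-0.67 ± 0.15, adjusted p = 0.0012). The call of IFIT1 was lost without low-dose replicate 3, the highest library (-0.48). Falls of that order were also seen in XAF1 (-2.61 ± 0.63), IFITM1 (-2.44 ± 0.49) and CMPK2 (-1.93 ± 0.29), all under 3.4 CPM. The members that did not pass included ISG15 (-0.35 ± 0.18), IFIT2 (0.15) and OASL (0.099).

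The median of the interferon list was -0.379 from low to medium dose, with 8 members lower (1.57% of all genes), and -0.247 from medium to high dose, with 4 lower and 2 higher. IRF9 passed the test from low to medium dose (adjusted p = 5.89e-05) and not from medium to high dose (adjusted p = 0.158), and MX1 passed in both (adjusted p = 0.00069 and 0.00173, edgeR). Pinelliae Tuber gave a median of -0.203 between its own high and low dose, and 10 interferon genes fell more under Scutellariae Radix by the test of the difference (3.33% of all genes did). Of 13 genes of class I antigen presentation 3 fell, the transporter TAP1 (-0.59 ± 0.11) and the immunoproteasome subunits PSMB8 (-0.58 ± 0.15) and PSMB9 (-1.14 ± 0.31, a call lost without high-dose replicate 2, high-dose replicate 3 or low-dose replicate 3, at -0.91 to -0.96). The number that fell was between 2 and 7 over the alternative settings, and the light chain B2M did not pass (-0.18 ± 0.072).

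**Figure D4:**
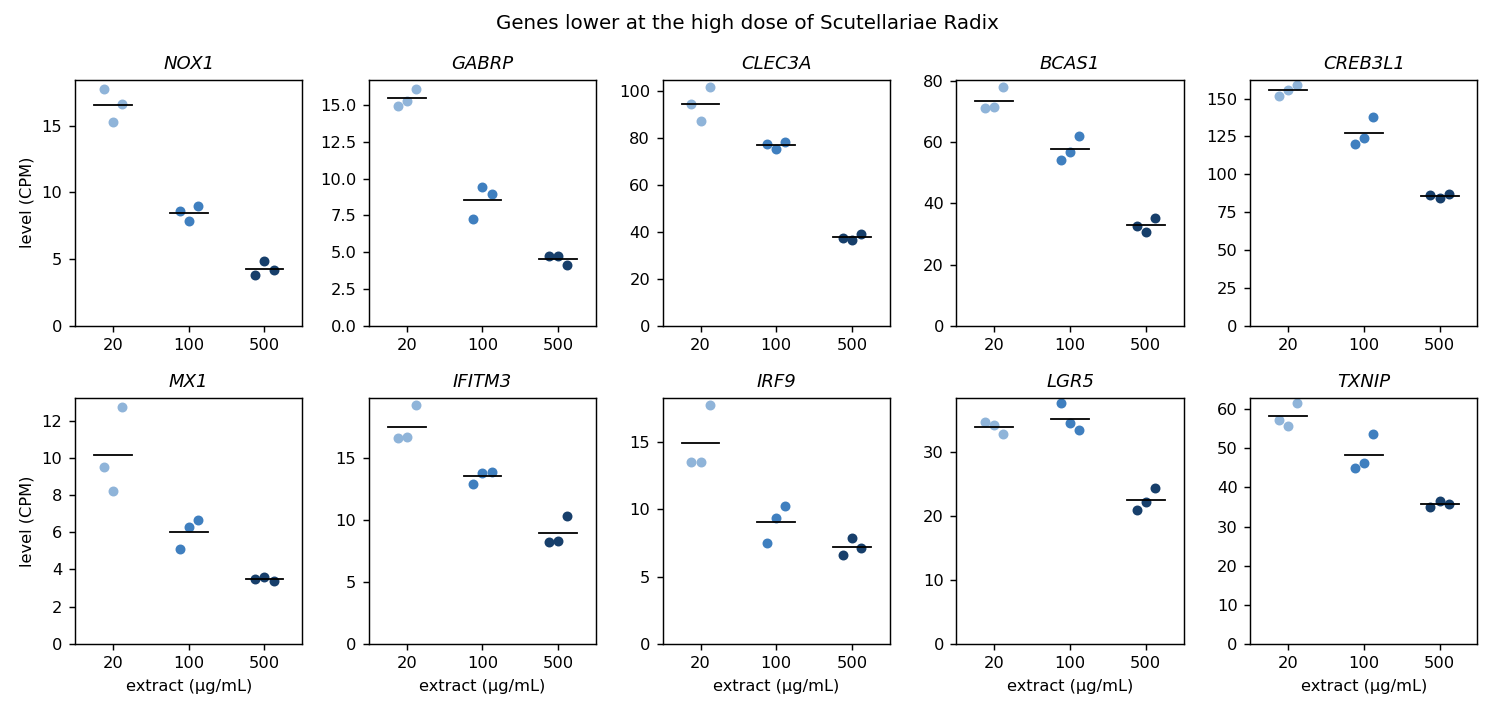
CPM (y axis, from 0) of 10 genes at 20, 100 and 500 µg/mL of Scutellariae Radix (x axis). Points are libraries and bars are means of 3. NOX1, GABRP and MX1 fall in both steps, whereas LGR5 is level between 20 and 100 µg/mL and lower at 500 µg/mL.

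NOX1, the catalytic subunit of the superoxide-producing oxidase of colon epithelium, had the largest fall among genes that met the naming rule. It stood at 17.8, 15.3 and 16.6 CPM at the low dose, 8.56, 7.85 and 8.97 CPM at the medium dose and 3.83, 4.82 and 4.21 CPM at the high dose. The high dose was 3.89-fold below the low dose (-1.96 ± 0.10, adjusted p = 2.04e-21, edgeR), and the 2 steps were of about equal size (-0.96 and -0.996). Its organiser subunit NOXO1 fell by less (-0.49 ± 0.13), the membrane partner CYBA did not pass (-0.12 ± 0.11), and the hydrogen peroxide scavenger catalase (CAT) fell 1.27-fold. In this list 3 of 11 genes fell.

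The next largest falls were in genes of varied function. GABRP, an epithelial subunit of the GABA type A receptor, went from 14.9, 15.3 and 16.1 to 4.72, 4.71 and 4.14 CPM (-1.78 ± 0.11, adjusted p = 5.1e-18, edgeR). CD200, an immune-inhibitory surface glycoprotein, fell 3.42-fold to 2.58 ± 0.425 CPM, and the alcohol dehydrogenase ADH6 fell 3.17-fold to 1.65 ± 0.16 CPM. The phosphatase PTPRO (-1.51), the ubiquitin ligase RNF144B (-1.50), the amino-acid carrier SLC38A11 (-1.47), the sulfotransferase CHST3 (-1.39) and the proton pump subunit ATP6V1B1 (-1.35) lost more than 2.5-fold. SPEG (-1.67), FAM131B (-1.39) and PLAAT4 (-1.36) were the other genes among the 15 largest falls, beside OAS2, MX1 and CLEC3A. CLEC3A, a secreted C-type lectin, was the most abundant of them, at 94.5, 87.4 and 101 CPM against 37.3, 36.5 and 38.9 CPM (-1.33 ± 0.049, adjusted p = 5.73e-27, edgeR). BCAS1, picked out after its values were seen, fell 2.24-fold from 73.7 ± 3.87 to 32.8 ± 2.38 CPM.

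On the other side, the large rises outside the lists above began with AHNAK2, a giant scaffold protein. It stood at 4.41, 4.30 and 4.54 CPM at the low dose and 17.1, 19.2 and 16.3 CPM at the high dose (1.98 ± 0.15, adjusted p = 1.1e-14, edgeR), with 5.66, 4.81 and 4.56 CPM at the medium dose. The lipid-forming acyltransferase GPAT3 rose 2.60-fold from 13.5 ± 0.873 to 35.0 ± 0.452 CPM. PADI2, which converts arginine to citrulline in proteins, rose 2.53-fold and the adaptor LAT2 rose 2.43-fold. AHNAK2 did not pass the test from low to medium dose (adjusted p = 0.746), while GPAT3 and PADI2 passed the test in both steps.

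Growth-factor signalling through ERK induces immediate-early transcription factors, ligands of the EGF receptor and phosphatases that feed back on the kinase. Of the 21 genes tested 12 rose and 1 fell, with a median of 0.355. DUSP5, a nuclear phosphatase of ERK, rose 2.91-fold from 3.88, 3.98 and 4.47 to 12.6, 12.7 and 10.9 CPM (1.54 ± 0.12, adjusted p = 3.43e-15, edgeR). The AP-1 subunit FOSL1 rose, at 22.9 ± 1.63 and 45.7 ± 2.19 CPM. EREG, a ligand of the EGF receptor, had nearly reached its full rise at the medium dose, with 96.8 ± 3.94, 179.5 ± 16.1 and 182 ± 5.02 CPM in order of dose. EGR1 (0.65 ± 0.086) and PHLDA1 (0.51 ± 0.052) rose less, and the inhibitor SPRY2 fell (-0.30 ± 0.058).

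NF-kB targets split. Of 17 tested genes 6 rose and 2 fell, with a median of 0.215. The neutrophil chemokine CXCL8 rose from 4.29, 3.46 and 4.68 to 8.72, 8.53 and 6.499 CPM (0.92 ± 0.14, adjusted p = 1.68e-06, edgeR), the inhibitor of apoptosis BIRC3 rose by 0.58 ± 0.12 and the subunit gene NFKB2 by 0.48 ± 0.083. The iron-binding lipocalin LCN2 fell from 80.9 ± 5.77 to 55.4 ± 2.29 CPM (-0.55 ± 0.084). Pinelliae Tuber gave CXCL8 a log2 change of 1.14, and the difference between the extracts did not pass the test (-0.22 ± 0.20, adjusted p = 0.705). It did for 5 of the 17, LCN2, TNFAIP2 and the chemokines CXCL1 and CXCL3 being lower under Scutellariae Radix and RELB higher. CXCL1 changed by 2.17 with Pinelliae Tuber and by 0.041 ± 0.26 with Scutellariae Radix, a difference of -2.13 ± 0.36 (adjusted p = 2.17e-05, edgeR). Genes known as p53 targets also split, in cells whose p53 is mutant. CDKN1A, the cell-cycle inhibitor p21, rose from 15.99, 13.9 and 14.9 to 30.9, 30.7 and 30.6 CPM (1.05 ± 0.079), whereas BTG2 (-1.05 ± 0.10), SESN1 (-0.90 ± 0.069) and TP53INP1 (-0.97 ± 0.16) fell and MDM2 did not pass (0.085 ± 0.071). In all 6 of 20 rose and 4 fell. Among 19 genes of the BCL2 family and caspases 2 rose (10.5%, against 16.3% of all genes in either direction), one of them the BH3-only gene PMAIP1 (0.49 ± 0.13), a call lost without high-dose replicate 3 (0.42). The number ranged from 1 to 4 over the alternatives.

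Of 29 glycolysis and hypoxia genes 16 rose and 13 did not pass, with a median of 0.233. SLC2A1, the main glucose transporter, went from 551, 514 and 512 to 905, 908 and 874 CPM (0.77 ± 0.035, adjusted p = 5.1e-23, edgeR), and hexokinase HK2 (0.51 ± 0.065), PFKP (0.59 ± 0.05) and ENO2 (0.66 ± 0.078) followed. VEGFA, the angiogenic factor, rose by 0.61 ± 0.05, with its medium-dose mean of 70.7 CPM beside 69.8 CPM at the low dose. The hypoxia marker CA9 did not pass (-0.27 ± 0.12). TXNIP, which blocks glucose uptake and thioredoxin, fell from 57.3, 55.6 and 61.6 to 35.0, 36.7 and 35.7 CPM (-0.70 ± 0.06, adjusted p = 1.44e-13). In the list of TXNIP and FOXO genes 3 of 18 rose and 5 fell, among them SESN3 (-0.93 ± 0.20), while the factor gene FOXO1 rose (0.42 ± 0.071) and TRIB1 rose (0.42 ± 0.038).

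Goblet cells are the mucus-secreting lineage of the colon, set up by ATOH1. Of 14 goblet and secretory genes tested 8 fell, with a median of -0.476. ATOH1 stood at 3.53, 3.84 and 4.40 CPM at the low dose and 2.24, 1.75 and 2.16 CPM at the high dose (-0.93 ± 0.14, adjusted p = 1.75e-06, edgeR). CREB3L1, a membrane-bound factor of secretory cells, went from 152, 156 and 159 to 86.3, 84.3 and 87.0 CPM (-0.86 ± 0.072, adjusted p = 1.17e-13). The disulfide isomerases AGR2 (-0.54 ± 0.08) and AGR3 (-0.65 ± 0.12) and the lectin REG4 (-0.57 ± 0.096) fell too. The mucin MUC2, at 31.6 ± 6.10 and 23.7 ± 2.46 CPM, and the trefoil factor TFF3 did not pass (adjusted p = 0.186 and 0.0866, edgeR). SPDEF (0.23 ± 0.092), MUC5AC (0.51 ± 0.21) and MUC5B (0.68 ± 0.32) changed in the other direction and did not pass either. In bulk RNA fewer cells of a type and less RNA per cell cannot be told apart.

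Markers of absorptive cells did not move as one, 4 of 20 rising and 5 falling (2 to 6 falling over the alternatives). KRT20, a keratin of differentiated colon epithelium, rose from 266, 247 and 259.9 to 391, 377 and 368 CPM (0.56 ± 0.045, adjusted p = 2.47e-14, edgeR). The adhesion molecules CEACAM5 (0.82 ± 0.12) and CEACAM6 (0.64 ± 0.063) rose, although they are close copies that may share reads. The microvillus protein villin (VIL1) fell (-0.35 ± 0.04), as did the disaccharidase SI, at under 0.6 CPM (-1.70 ± 0.48, a call lost without high-dose replicate 2, at -1.29). Wnt signalling sustains intestinal stem cells, and 7 of its 15 tested targets and stem-cell genes fell while 2 rose, with a median of -0.22. LGR5, the stem-cell receptor, went from 34.7, 34.2 and 32.9 to 20.95, 22.1 and 24.3 CPM (-0.59 ± 0.061, adjusted p = 5.9e-11), with a medium-dose mean of 35.2 CPM. EPHB3 (-0.76 ± 0.085), PROM1 (-0.56 ± 0.055) and the Wnt inhibitor DKK1 (-0.57 ± 0.11) also fell. TCF7 rose (0.23 ± 0.05), and AXIN2, the general Wnt feedback gene, had a small rise (0.18 ± 0.052) that was lost without high-dose replicate 1, without low-dose replicate 3 and with no filter on low counts. Of 17 tight-junction and adhesion genes 4 fell, including CLDN1 (-0.49 ± 0.06) and the pore-forming claudin CLDN2, at 129, 124 and 129.8 against 90.4, 88.8 and 88.8 CPM (-0.52 ± 0.045). E-cadherin (CDH1) did not pass (-0.12 ± 0.061).

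Conjugation and transport genes showed both directions, with 7 of 23 rising and 4 falling. UGT1A1 (0.56 ± 0.067) and UGT1A6 (0.59 ± 0.07), enzymes of glucuronidation, rose, but the genes of the UGT1A locus share exons and so share reads. UGDH, which supplies the sugar donor, rose by 0.39 ± 0.048 and the sulfotransferase SULT2B1 by 0.56 ± 0.082. Among metallothioneins, cysteine-rich proteins that bind zinc and copper, MT1E (-0.48 ± 0.13), MT1X (-0.66 ± 0.18) and MT2A (-0.51 ± 0.14) fell, and with the zinc exporter SLC30A2 (-1.40 ± 0.41) 4 of the 9 genes of the list fell. These copies also share reads, and the call of MT2A was lost without low-dose replicate 3 (-0.44) and that of SLC30A2 without high-dose replicate 1 (-1.15). The autophagy receptor SQSTM1 rose from 379.9 ± 12.2 to 578 ± 6.97 CPM (0.60 ± 0.058) and the protease CTSL rose by 0.61 ± 0.14, 2 of the 4 genes that rose among 20 of lysosome and autophagy. In that list 1 gene fell, the more abundant protease CTSB, from 88.3 ± 2.77 to 68.7 ± 2.75 CPM (-0.36 ± 0.056). FGF19, a target of the bile acid receptor, rose by 0.57 ± 0.066 in a list where 3 of 13 rose and 1 fell. The matrix protein THBS1 rose (0.80 ± 0.067) and the YAP target CCN2 fell (-0.88 ± 0.19), in a TGF-beta and YAP list with 3 of 17 higher and 5 lower.

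Further lists held housekeeping and growth genes. None of the 27 cytosolic ribosomal protein genes was called by edgeR over all 60 libraries or by DESeq2. In that edgeR fit 0 had an unadjusted p below 0.05, and their changes ran from -0.16 to 0.09. An edgeR fit on only the 6 libraries compared called 1. None of 26 nuclear genes of the respiratory chain was called by edgeR over all 60 libraries. In that fit 1 had an unadjusted p below 0.05, and their changes ran from -0.16 to 0.10. DESeq2 called 1, and an edgeR fit on only the 6 libraries compared called 4. Of 27 mitosis genes 3 rose and 3 fell (22.2% called; 2 to 6 rose and 0 to 6 fell over the alternatives), and MKI67, the proliferation marker, was at 748 ± 68.3 and 785 ± 40.8 CPM (0.069 ± 0.15). DNA replication genes had 8 of 30 higher and 1 lower (30% called), the licensing factor CDC6 by 0.38 ± 0.041 and MCM10 by 0.27 ± 0.057. Of 15 mitochondrially encoded genes only the ribosomal RNAs were called, MT-RNR1 (0.40 ± 0.082) and MT-RNR2 (0.23 ± 0.075), and the call of MT-RNR2 was lost without low-dose replicate 1, low-dose replicate 2 or high-dose replicate 3. The share called was 13.3%, and the count of mitochondrially encoded genes that rose was 1 to 7 over the alternative settings. Of 20 ribosome biogenesis genes 4 rose (20.0% called), and 2 to 13 did under the alternatives, the highest counts coming from fits on fewer libraries. In the list of polyamine, nucleotide and folate enzymes 5 of 20 rose and 2 fell (35.0% called). Of 12 replication-dependent histone genes 2 fell (16.7% called), near the 16.3% of all genes called in either direction.

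The Pinelliae Tuber extract, given at the same doses under the same opening number of the sample codes, was used to ask which of these changes differed between extracts. The high-against-low change differed for 1050 genes (6.32% of 16608), 497 higher and 553 lower under Scutellariae Radix (2.99% and 3.33%, edgeR interaction term). This test uses the same Scutellariae Radix libraries as the changes above. The NRF2 list had 23 of 26 genes with a greater rise under Scutellariae Radix, beside a Pinelliae Tuber median of 0.06. The cholesterol list had 21 of 24, beside a Pinelliae Tuber median of -0.126, and the ATF4 list had 18 of 29 higher and 1 lower. AhR targets had 7 of 12.

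CYP1A1 stood at 0.618, 0.501 and 0.483 CPM at the low dose of Pinelliae Tuber and 0.888, 1.01 and 0.91 CPM at its high dose. Its difference in log2 change was 3.49 ± 0.41 (adjusted p = 8.9e-09, edgeR). NOX1 was at 20.6, 17.9 and 19.9 CPM at the low dose and at 17.1, 16.8 and 19.1 CPM at the high dose, and the difference was -1.82 ± 0.13 (adjusted p = 3.45e-15). NOX1 overlapped between the doses of Pinelliae Tuber. That it lay apart between those of Scutellariae Radix was required by the naming rule, which set no such condition on Pinelliae Tuber. The Pinelliae Tuber log2 change was -0.14 for NOX1 and -0.079 for HMOX1. For ACSS2 the log2 change was 1.04 under Scutellariae Radix and -0.42 under Pinelliae Tuber, and the difference was 1.46 ± 0.097 (adjusted p = 3.15e-16, edgeR).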

How the data were processed

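RNA of HT29 cells was sequenced in 60 libraries, 20 groups of 3 by the labels, and the 6 libraries of the high and low dose of Scutellariae Radix were compared. The authors deposited RSEM expected counts, unscaled, for each gene. Per the submitters' processing notes the tools were RSEM 1.3.3, STAR 2.7.3a, Trim Galore 0.6.5 and FastQC 0.11.9, with GRCh38 as the genome. The gene annotation they used is not given in the sources used here. RSEM divides reads between genes that share sequence, so 8.75% of values were not whole, and all were rounded to whole counts. A further 210 columns of the table were not used. Of 60675 genes 56558 had a symbol in the gene name reference, and positions are those of GENCODE release 29.

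Counts were scaled with TMM in edgeR 4.0.16 (R 4.3.3), filtered with filterByExpr (16608 genes left) and fitted with robust quasi-likelihood over all 60 libraries, which share 1 estimate of the spread (40 residual degrees of freedom). P-values of each contrast were adjusted over all genes (Benjamini-Hochberg), with 0.05 as the threshold of a call. The error after a log2 change is approximate, the size of the change over the root of its F value. CPM are counts per 1e6 of the scaled library size, and a level's error is an SD over 3 libraries. Counts of the same depth were also simulated, with 200 genes of at least 1 CPM changed in the high-dose group and no other differences. The fit recovered 48% of genes changed 1.25-fold, 68% at 1.5-fold and 98% at 2-fold. Of its 165 calls 9 were unchanged genes. Far more genes were called in the real comparison, and scarcer genes were not simulated as changed, so these shares need not hold there.

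The members and lists were chosen with earlier results of these data known. Genes were named by a rule: called, at least 5 CPM in the higher group and no overlap between groups, the 15 largest changes in each direction; up to 5 members of each list by smallest p; and the 5 largest differences from Pinelliae Tuber in each direction with at least 5 CPM. The steps through the medium dose were tested after the data were seen. These genes outside the rule were chosen after their values were seen: ABCG2, AHR, AHRR, AKR1C2, ALDH1L2, ARNT, ATF4, AXIN2, BCAS1, BLVRA, CA9, CMPK2, CXCL1, CXCL3, DDIT3, DDIT4, EBP, EPCAM, FASN, HMGCS1, IFI44L, IFIT1, IFIT2, IFITM1, ISG15, KRT8, MDM2, MKI67, MUC2, MUC5AC, MUC5B, NMRAL2P, NQO1, OASL, PMVK, SI, SPDEF, SPRY2, SREBF2, STAT2, TALDO1, TFF3, TM7SF2, TNFAIP2, TXNRD1 and XAF1. Some genes are not reported here.

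Alternatives were DESeq2 size factors, the Wald test of DESeq2 1.42.0, no filter on low counts, fits on fewer libraries, a replicate block, a trend on log10 dose and leaving out each library in turn.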

Additional observations from a re-analysis of the deposited data

Results flagged for a closer look

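The high-against-low change differed between Scutellariae Radix and Pinelliae Tuber for 1050 genes by edgeR's interaction term. The 5 largest positive differences in log2 change among genes at 5 CPM or more were 3.49 for CYP1A1, 2.06 for AHNAK2, 1.51 for CHAC1, 1.5 for HMOX1 and 1.46 for ACSS2. The 5 largest negative differences were -1.90 for the receptor subunit GABRP, -1.82 for NOX1, -1.81 for the glycoprotein CD200, -1.54 for the muscle-type kinase SPEG and -1.46 for the alcohol dehydrogenase ADH6.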

How the results depend on the processing

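Between high and low dose 2714 genes were called. A fit on only the 6 libraries compared gave 4141, and the other settings gave 1992 (without high-dose replicate 1) to 3805 (only the 18 libraries of the set). Among these settings, a fit without 4 libraries of other groups that stood apart gave 3668. Leaving out each library in turn gave 1992 to 2318. The difference from Pinelliae Tuber gave 1050 genes, 1663 with only the libraries compared, 1579 with only the 18 libraries of the set, and 799 to 1031 without each library. Replicate numbers did not pair the libraries (correlations of deviations for the same number 0.00886, 0.00979 and -0.0127), and a fit with the replicate block within the set gave 2848 and 1141 genes. Of 2394 settings of single named genes 2308 kept direction and side of the threshold, 45 lost the call, 34 gained one and 7 changed sign. The sign changes were in 3 genes that were not called, whose log2 change over the libraries left out ran from -0.001 to 0.281 (OASL), -0.055 to 0.222 (CXCL1) and -0.446 to 0.265 (CXCL3). The cause was not tested. For the list counts 934 of 1066 settings stayed within 1.5 times. The number of members that rose stayed so in all 13 settings for AhR (7 to 8), NRF2 (25 to 26), ATF4 (20 to 23) and cholesterol genes (20 to 23), as did the number of interferon genes that fell (19 to 25). The single ATF4 member that fell was lost in 5 of the 13. Scarce genes such as XAF1, IFI44L and SI rest on few counts, and the part of depth in the calls was not tested.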
